A study of Rattus norvegicus with 12 samples.

Results

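The genes Mrc1, Ms4a7, Folr2, Cd163, Lyve1, Lyz2, Cd68 and Msr1 mark macrophages that live at the borders of the brain, or phagocytes in general. They were followed in rat hippocampal slice cultures given antibodies against Nogo-A. Members were the probe sets annotated to exactly 1 symbol among these 8 genes. That gave 8 probe sets for 7 genes, out of 31042 probe sets tested on the arrays and 14217 genes with a probe set of 1 symbol. Lyve1 had 2 probe sets, 1382192_at and 1382732_at, and Msr1, which encodes a macrophage scavenger receptor, was not analysed here because none of its probe sets carried a single symbol. The genes were selected on values of these same arrays, above all on the difference between 7B12 cultures and controls. Their values in every comparison that holds 7B12 are therefore a description and carry no test.

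The arrays fell into 4 groups of 3, and in all of them hippocampal slices of 350 µm from Wistar rats at postnatal day 7 were kept at 33 °C until day 26 in vitro. Cultures called 7B12 received at 3 µg/ml, from day 21 for 5 days, a mouse monoclonal antibody to amino acids 763 to 820 of Nogo-A, a membrane protein that restrains neurite growth. Cultures called 11C7 received in the same way an antibody to amino acids 623 to 640 of Nogo-A, those called IgG received a monoclonal antibody to wheat auxin, and those called NT stayed untreated. Each array held RNA of 24 pooled cultures, the RNA integrity number was above 9.0, and the labels give the replicates as separate cultures from different animals.

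Brain macrophages fall into microglia, which lie within the tissue, and border macrophages, which lie in the meninges, around vessels and in the choroid plexus. Both depend on signalling through the receptor Csf1r and on the transcription factor PU.1. In mouse brain, high Mrc1, Ms4a7, Folr2, Lyve1 and Cd163 are used to tell border macrophages from resting microglia, whereas Lyz2 and Cd68 are shared by many phagocytes. All of these genes can also be expressed by macrophages that enter tissue from blood.

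Each value below is log2 of the deposited ratio minus the median of its array, so a value of 0 is the middle of that array. For 76.4% of probe sets, the 8 members among them, the median ratio over the 12 arrays was 1, and for nearly all others it was lower, by a divisor that is not known here. Such ratios carry no level. They allow no comparison between genes and no check of whether a marker of the labelled tissue is present or absent. In bulk RNA, fewer cells of a type and less RNA per cell cannot be told apart. Arrays that carry the same replicate number deviated together from the means of their groups. Between groups, r of these deviations was 0.086 to 0.423 for the same number and -0.293 to 0.081 for other numbers. In the values themselves r was 0.568 to 0.663 in number 1 and 0.458 to 0.514 in number 2. It was only 0.347 to 0.477 in number 3, as for many pairs of other numbers. In number 1, for example, the mean of 8 neuron marker genes was low in 7B12, 11C7, IgG and NT alike (-1.15, -1.18, -1.11 and -1.77). Differences between arrays of the same number are therefore given beside the group means.

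The stretches just before the gene starts are shown for the 4 genes that stood highest in 7B12, because these genes moved together over the arrays. They were taken from RefSeq on the build GRCr8, run 5′ to 3′ on the gene's strand and cover 250 bases before a start. For Lyz2 the start used lies inside the gene as RefSeq places it. Capitals mark the letters GAGGAA, the core of the site that PU.1 binds, or their complement TTCCTC. The windows were chr17:82157475-82157724 on the plus strand for Mrc1 and, on the minus strand, chr1:217409644-217409893 for Ms4a7, chr1:165630383-165630632 for Folr2 and chr7:54798012-54798261 for Lyz2.
Mrc1: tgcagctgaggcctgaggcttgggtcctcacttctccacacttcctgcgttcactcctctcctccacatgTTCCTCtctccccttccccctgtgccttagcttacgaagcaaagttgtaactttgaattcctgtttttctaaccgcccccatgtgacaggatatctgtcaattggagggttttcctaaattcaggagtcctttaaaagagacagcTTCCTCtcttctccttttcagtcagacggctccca
Ms4a7: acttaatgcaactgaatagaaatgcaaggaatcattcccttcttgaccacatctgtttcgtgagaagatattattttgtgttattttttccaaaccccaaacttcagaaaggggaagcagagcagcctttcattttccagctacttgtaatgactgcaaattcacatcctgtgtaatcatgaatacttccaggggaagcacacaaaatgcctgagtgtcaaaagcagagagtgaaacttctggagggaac
Folr2: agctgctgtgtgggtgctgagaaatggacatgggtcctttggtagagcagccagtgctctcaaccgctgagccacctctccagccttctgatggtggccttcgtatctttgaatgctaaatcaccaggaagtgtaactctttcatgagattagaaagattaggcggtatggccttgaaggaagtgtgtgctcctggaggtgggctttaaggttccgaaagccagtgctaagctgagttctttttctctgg
Lyz2: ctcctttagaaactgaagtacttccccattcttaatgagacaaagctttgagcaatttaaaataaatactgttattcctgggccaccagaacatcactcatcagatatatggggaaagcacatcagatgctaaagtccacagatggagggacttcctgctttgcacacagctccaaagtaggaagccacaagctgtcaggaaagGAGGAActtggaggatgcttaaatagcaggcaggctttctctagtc
The Mrc1 window held GAGGAA at 2 places, both on the strand opposite to the gene, starting 180 and 35 bases before the start. The Lyz2 window held it once on the gene's own strand, 46 bases before the start used for that window. RefSeq places the Lyz2 gene at chr7:54792715-54798060, which takes in part of the window, so that match lies inside the annotated gene. The Ms4a7 and Folr2 windows held none. Of the 7 measured genes 3 held these letters, the other being Cd68, against 23.3% of 33469 rat windows of the same length. The C/EBP letters TTGCNNAA stood in 1 of the 7 windows, that of Lyz2 (9.22% of all windows), and the AP-1 letters TGANTCA in that of Cd68 (6.34%). The STAT letters TTCNNNGAA (7.67% of all windows) and the E-box CACGTG (5.59%) stood in 0 of 7. Both strands were searched, and none of the matches in these 7 windows overlapped a match of another motif.

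In 7B12 cultures 4 of the 7 genes stood above every control array: Mrc1, Ms4a7, Folr2 and Lyz2. The mean differences from the controls, here the mean of IgG and NT, lay between 2.64-fold for Lyz2 and 7.17-fold for Ms4a7. Cd163, Cd68 and both probe sets of Lyve1 overlapped with the controls. The question for this comparison was which genes differ when 7B12 binds Nogo-A. Of the 8 probe sets, 4 stood above all 6 control arrays in all 3 7B12 arrays, and 1.99% of all probe sets did so. The same 4 stood above both controls of their own number in all 3 arrays, as did 8.07% of all probe sets. Since this contrast chose the genes, nothing is read from either share.

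Mrc1 (probe set 1392648_at, chr17:82157725-82239411) encodes the mannose receptor CD206, which takes up glycoproteins and microbes. It stood at 0.80, 2.72 and 2.30 in 7B12 replicates 1, 2 and 3, against -1.41, 0.02 and 0.14 in IgG and -1.84, 0.07 and -0.13 in NT. All 3 7B12 arrays lay above all 6 controls, and the controls themselves split, with both number 1 arrays far below the others. The mean difference was 2.46 ± 0.61 (SE), and measured against the mean of IgG and NT within each replicate number it was 2.42, 2.67 and 2.30 (mean 2.46 ± 0.19, SD, n = 3). The lower value of 7B12 1 thus went with low controls of that number, whose mean was -1.62 against 0.047 and 0.0049 in numbers 2 and 3.

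Ms4a7 (1378193_at, chr1:217394019-217409643) encodes a membrane protein of the MS4A family that is used in mouse brain as a marker of border macrophages. Its values were 2.48, 1.78 and 2.86 in 7B12, against -0.24, -1.23 and 0.76 in IgG and -0.48, -1.09 and -0.52 in NT. The groups did not overlap, and IgG 3 was the highest control. Its mean difference was the largest of the members, 2.84 ± 0.64 (SE, 7.17-fold), which placed it as number 31 from the top of 31042 probe sets. Within numbers its differences were 2.85, 2.94 and 2.74.

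Folr2 (1390348_at, chr1:165612047-165630382) encodes folate receptor beta, a receptor for folate on the surface of macrophages. It reached 1.49, 1.51 and 2.16 in 7B12, against -0.99, -0.19 and 0.33 in IgG and -1.06, -0.77 and -0.37 in NT. Every 7B12 array was again above every control. The mean difference was 2.23 ± 0.42 (SE), and the differences within numbers were 2.52, 1.99 and 2.18.

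Lyz2 (1370154_at, chr7:54792715-54798060) encodes lysozyme, the enzyme with which phagocytes cut bacterial cell walls. It stood at 0.80, 1.15 and 1.57 in 7B12, against -0.54, -0.20 and 0.27 in IgG and -0.58, -0.37 and 0.06 in NT. The groups did not overlap. The difference was smaller than in the previous 3 genes, 1.40 ± 0.31 (SE), and the most even within numbers, at 1.36, 1.43 and 1.40 (mean 1.40 ± 0.037, SD, n = 3).

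**Figure D1:**
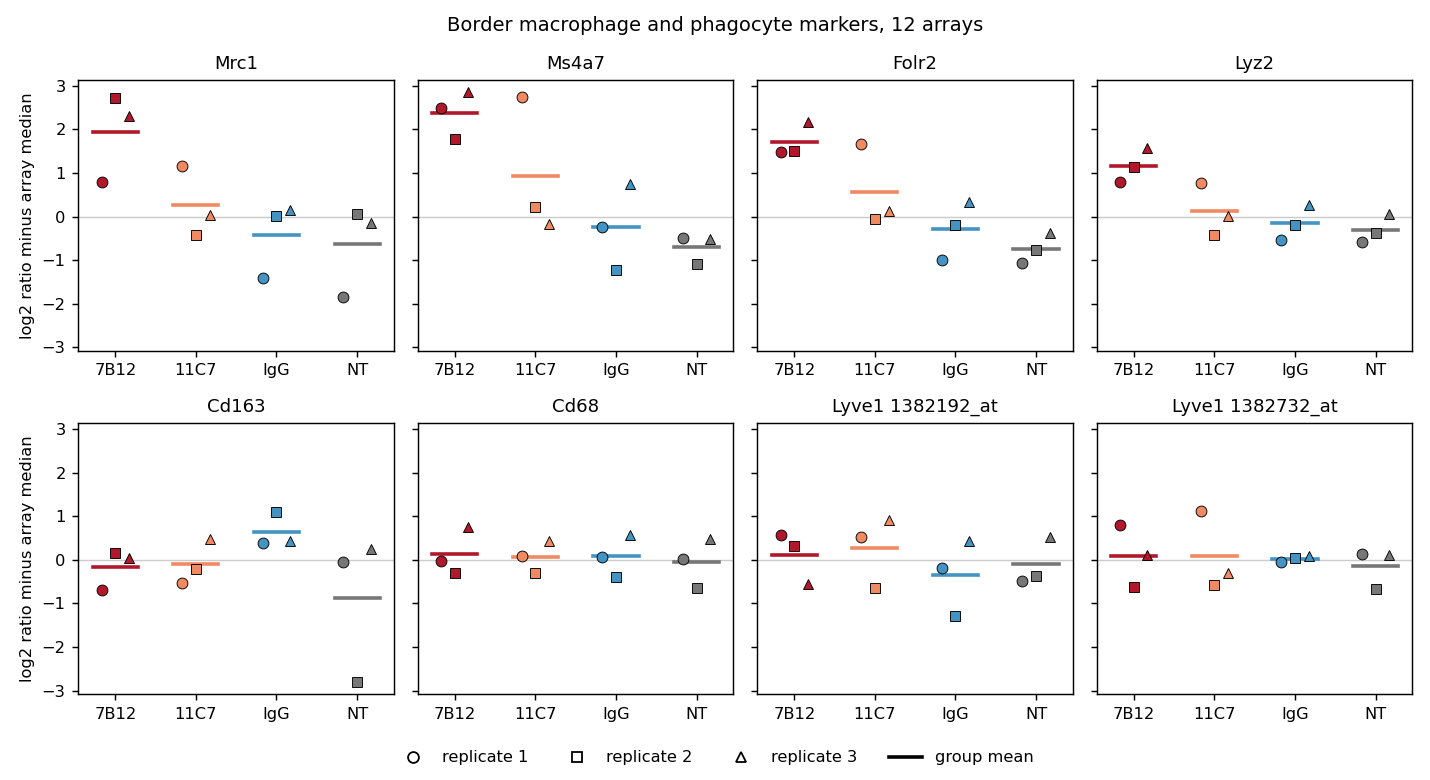
Log2 ratio minus array median (vertical axis) of the 8 probe sets in 7B12, 11C7, IgG and NT (horizontal axis); each point is 1 array, its shape gives the replicate number, and each bar is the mean of 3 arrays. Mrc1, Ms4a7, Folr2 and Lyz2 stand above all 6 controls in 7B12, and in 11C7 the array numbered 1 stands apart from the other two.

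Cd163, Cd68 and Lyve1 did not separate from the 6 controls. Cd163 (1393917_at, chr4:158770751-158804146), the receptor that clears complexes of haemoglobin and haptoglobin, stood at -0.69, 0.16 and 0.04 in 7B12, against 0.39, 1.10 and 0.43 in IgG and -0.05, -2.79 and 0.25 in NT. NT 2 was far below every other array, and 7B12 1 was the next lowest. The mean difference was -0.05 ± 0.61 (SE), and it depended on the control. Against IgG alone Cd163 stood at -0.81, with -1.08, -0.94 and -0.40 within numbers. Against NT alone it stood at 0.70. Against both, the differences within numbers were -0.86, 1.01 and -0.30, and without NT 2 the mean difference was -0.54.

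Cd68 (1375010_at, chr10:54880562-54882441), a glycoprotein of lysosomes and late endosomes, stood at -0.02, -0.31 and 0.76 in 7B12, against 0.07, -0.39 and 0.57 in IgG and 0.03, -0.64 and 0.48 in NT. The groups overlapped, and each followed the same order of numbers, with number 2 lowest and number 3 highest. The mean difference was 0.12 ± 0.34 (SE).

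Lyve1 (chr1:174393387-174410977), a hyaluronan receptor of lymphatic endothelium and of macrophages along vessels, gave different pictures in its 2 probe sets. Probe set 1382192_at stood at 0.56, 0.33 and -0.56 in 7B12, against -0.19, -1.28 and 0.43 in IgG and -0.48, -0.36 and 0.53 in NT. Probe set 1382732_at stood at 0.79, -0.63 and 0.11 in 7B12, against -0.04, 0.04 and 0.09 in IgG and 0.14, -0.67 and 0.10 in NT. In both, 7B12 1 lay above the highest control and the other 7B12 arrays did not, with mean differences of 0.33 ± 0.48 and 0.15 ± 0.41 (SE). Over the 12 arrays the 2 probe sets had a Pearson r of 0.27 with each other, and -0.01 once the mean of each number was removed, so they do not stand for 1 measurement.

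**Figure D2:**
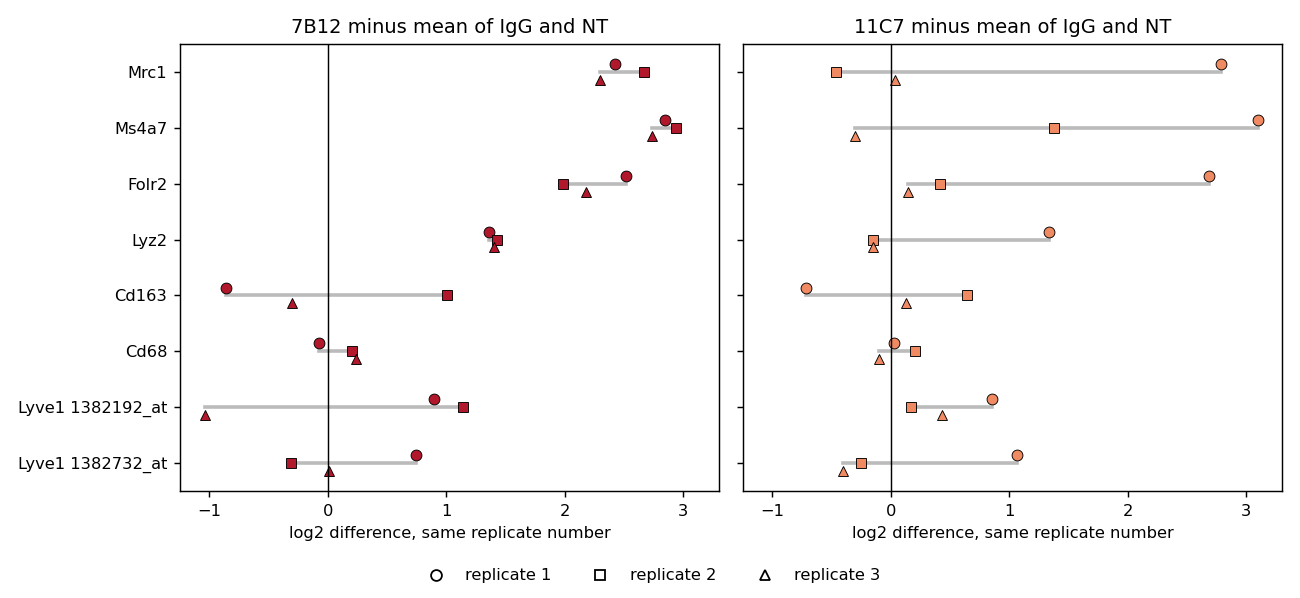
Log2 difference (horizontal axis) between the 7B12 array (left) or the 11C7 array (right) and the mean of the IgG and NT arrays of the same replicate number, for the 8 probe sets (rows); point shapes give the number and grey lines the range. For Mrc1, Ms4a7, Folr2 and Lyz2 the 3 differences of 7B12 lie close together, whereas those of 11C7 spread out, with number 1 highest.

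Relative to all probe sets, the members split in the same way. In 7B12, 7 of the 8 lay above 0 with a median difference of 0.87, against 50.3% and a median of 0.0026 over all probe sets. A difference of at least 2-fold upward was seen in 4 of 8 members and in 5.56% of all probe sets. By limma with Benjamini-Hochberg adjustment over 31042 probe sets, 0 probe sets (0%) passed an adjusted p of 0.05 in this contrast, and 1615 (5.2%) had an unadjusted p under 0.05. The members' own p-values are not given, for the reason stated.

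**Figure D3:**
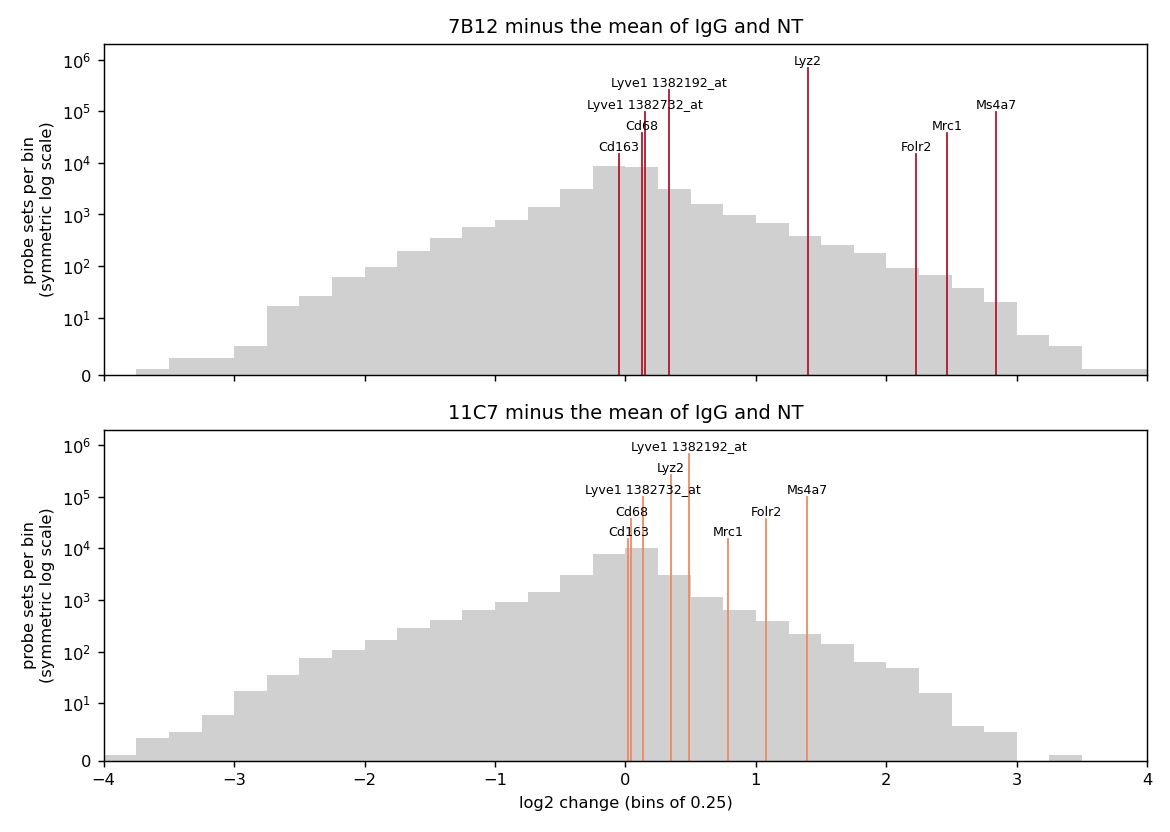
Number of probe sets (vertical axis, symmetric log scale) by log2 change (horizontal axis, bins of 0.25) in 7B12 (top) and 11C7 (bottom) against the mean of IgG and NT; coloured lines mark the 8 member probe sets, and their heights carry no value. In 7B12 Ms4a7 (2.84), Mrc1 (2.46) and Folr2 (2.23) lie in the thin upper tail and Lyz2 (1.40) inside it, with the other members near 0.

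With 11C7 no member stood apart as a group, and 1 of the 3 arrays was unlike the others. In 11C7 1 the values of Mrc1, Ms4a7, Folr2 and Lyz2 were as high as in 7B12 1 or nearly so, and in 11C7 2 and 3 they lay within the range of the controls. Of the 8 probe sets 0 stood above all 6 controls in all 3 11C7 arrays (0.767% of all probe sets did), whereas 5 of 8 did so in 11C7 1 alone, as did 14.1% of all probe sets. These 5 were the same 4 genes and Lyve1 1382732_at. The same 6 control arrays took part in the choice of the genes, so neither these counts nor the p-values below are independent of it. Above both controls of their own number in all 3 arrays stood 0 of 8, and 4.5% of all probe sets.

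Ms4a7 stood at 2.74, 0.22 and -0.18 in 11C7 replicates 1, 2 and 3, a difference from the controls of 1.39 ± 0.64 (SE) with an unadjusted p of 0.0568 and an adjusted p of 1 by limma. Without 11C7 1 the other 2 arrays stood 0.49 above the controls, and above the controls of their own number they stood 1.38 and -0.30, in place of 3.10 in number 1. One array thus carried most of this difference.

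Folr2 stood at 1.66, -0.06 and 0.12 in 11C7, a difference of 1.08 ± 0.42 (SE; limma, unadjusted p of 0.0291, adjusted p of 1), and of 0.54 without 11C7 1. It was the only member with an unadjusted p under 0.05 in this comparison, where 3.22% of all probe sets had one. Within numbers, its differences were 2.68, 0.42 and 0.14. All 3 were above 0, but they spread widely (SD 1.40, n = 3), and that of number 1 was by far the largest.

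Mrc1 stood at 1.17, -0.41 and 0.04 in 11C7 (difference 0.79 ± 0.61, SE; limma, unadjusted p of 0.229, adjusted p of 1), and Lyz2 at 0.78, -0.43 and 0.02 (0.35 ± 0.31; unadjusted p of 0.287, adjusted p of 1). Without 11C7 1 these differences were 0.34 and 0.019. Within numbers they were 2.79, -0.46 and 0.04 for Mrc1 and 1.34, -0.15 and -0.15 for Lyz2. Number 1 was thus high and the other two overlapped with the controls in both genes.

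The remaining probe sets had differences of 0.02 to 0.49 in 11C7, all with an adjusted p of 1 by limma. Cd163 stood at -0.54, -0.20 and 0.47, Cd68 at 0.08, -0.31 and 0.42, Lyve1 1382192_at at 0.52, -0.65 and 0.91, and Lyve1 1382732_at at 1.11, -0.57 and -0.31. All but the first value of Lyve1 1382732_at and the last of Lyve1 1382192_at lay within the range of the controls. By limma 0 of 31042 probe sets (0%) passed in 11C7, and 999 had an unadjusted p under 0.05.

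The 7B12 and 11C7 comparisons share their control arrays, so the antibodies were also set against each other. 7B12 stood above 11C7 by 1.67 ± 0.71 (SE) in Mrc1, 1.45 ± 0.74 in Ms4a7, 1.15 ± 0.49 in Folr2 and 1.05 ± 0.36 in Lyz2, and by -0.15 to 0.08 in the other probe sets. Only Lyz2 of the 8 probe sets had every 7B12 array above every 11C7 array, which 3.89% of all probe sets had. By limma 0 of 31042 probe sets (0%) passed in this comparison, and 3.83% had an unadjusted p under 0.05. The lowest Lyz2 value of 7B12 was 0.80 and the highest of 11C7 was 0.78, so this separation is a narrow one. Within number 1 the antibodies were close, with 7B12 minus 11C7 at -0.37 in Mrc1, -0.25 in Ms4a7, -0.17 in Folr2 and 0.023 in Lyz2. Over all probe sets 7B12 1 and 11C7 1 had a Pearson r of 0.648, and the other 5 pairs of number 1 arrays had 0.568 to 0.663, where the shared number takes part in each r. With the mean of each number removed, 11C7 1 had an r of -0.288 with 7B12 1, -0.387 with IgG 1 and -0.39 with NT 1. Removing the mean of 4 arrays by itself pushes the r between them below 0, so nothing is read from these values. Whether the label of 11C7 1 is right cannot be settled from these values. The labels were kept as given, and the 11C7 means and the differences between the antibodies hold only if it is right.

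Between the control groups, IgG and NT, no member passed. By limma 0 of 31042 probe sets (0%) had an adjusted p under 0.05, and 719 (2.32%) had an unadjusted p under 0.05. Cd163 was the member with the largest difference, 1.50 ± 0.70 (SE; limma, unadjusted p of 0.0582, adjusted p of 1), and the only 1 of 8 with every IgG array above every NT array, as 2.54% of all probe sets had. That difference came mainly from NT 2. Within numbers it was 0.44, 3.89 and 0.19, and without NT 2 it was 0.54. For the other probe sets IgG stood -0.24 to 0.46 from NT, each with an adjusted p of 1.

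Mrc1, Ms4a7, Folr2 and Lyz2 followed each other over the 12 arrays. Pearson's r between pairs of them ran from 0.72 for Mrc1 with Ms4a7 to 0.96 for Folr2 with Lyz2. With the mean of each replicate number removed it ran from 0.92 to 0.99, with Mrc1 and Lyz2 highest. Cd163 had an r of -0.05 to 0.06 with these 4 genes. The 12 points share groups and replicate numbers, and the difference by which the genes were chosen is part of r, so these values are a description without a test.

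**Figure D4:**
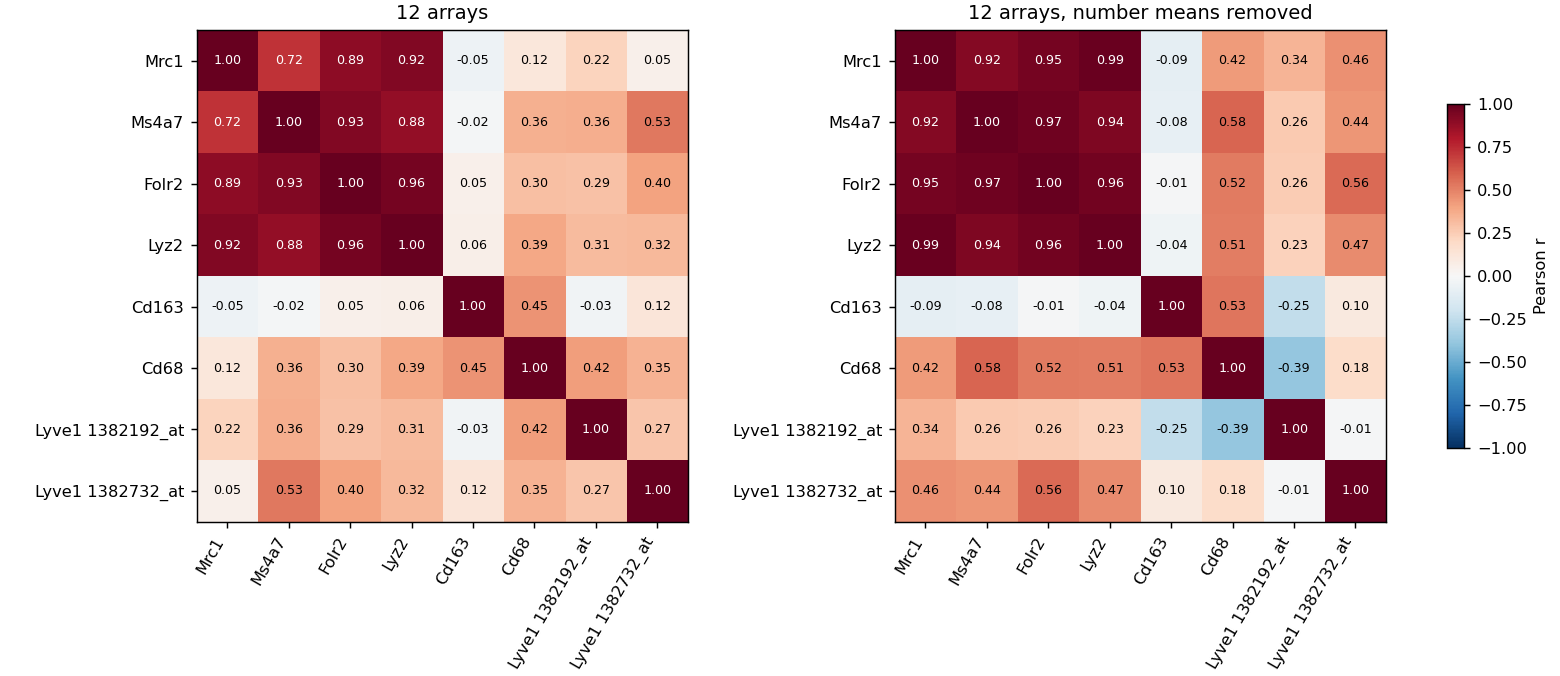
Pearson r between the 8 probe sets (rows and columns) over 12 arrays (left) and over the same arrays after the mean of each replicate number was removed (right); colour and number both give r. Mrc1, Ms4a7, Folr2 and Lyz2 form a square of high r, 0.72 to 0.96 on the left and 0.92 to 0.99 on the right.

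The probe sets with 1 symbol most like the mean profile of the members were those of Tlr8 (r = 0.987), Maf (0.977), Pik3ap1 (0.974), Pilrb2l4 (0.972) and Hpgds (0.97), ranked by Pearson's r over 12 arrays. Tlr8 encodes a Toll-like receptor of endosomes, Maf a transcription factor, Pik3ap1 an adaptor for the kinase PI3K, and Hpgds a prostaglandin D synthase. Tlr8 stood at 0.93, 0.96 and 1.48 in 7B12 and at 1.12, -0.32 and 0.12 in 11C7, against -0.93 to 0.08 in the controls. Hpgds stood at 1.56, 1.06 and 2.61 in 7B12 and at 1.80, -1.42 and 0.36 in 11C7, against -2.24 to 0.07 in the controls. Both were high in 11C7 1. The member profile by which they were ranked is high there too, so nothing is read from this likeness. After the number means were removed the 5 most alike were Tlr8 (0.99), Pik3ap1 (0.984), Clec4a3 (0.982), Pilrb2l4 (0.982) and Maf (0.98).

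Other marker genes of border macrophages were also higher in 7B12 in most cases. Of 15 measured, 12 lay above 0 against the controls (median 0.47), where 52.1% of all genes did (median 0.012), and 0 of their probe sets passed by limma. Clec4a3, a C-type lectin gene, stood at 1.81, 1.84 and 2.32 in 7B12 and at 2.09, -0.30 and 0.04 in 11C7, against -0.98 to 0.30 in the controls. Dab2, an adaptor for endocytosis, stood at 1.03 to 1.64 in 7B12, against -0.25 to 0.35 in the controls, and Stab1, the scavenger receptor stabilin-1, at 0.97 to 1.14, against -0.86 to 0.16. Clec10a, a lectin for galactose-type sugars, stood at -1.83 to -0.80 in 7B12, against -4.09 to -2.09 in the controls. Clec10a lay below 0 in 7B12 and the controls alike, so its ratio belongs to those with an unknown divisor. In these 4 genes every 7B12 array lay above every control, as in 1.99% of all probe sets. Here and in the lists below, the genes named are those with the largest absolute 7B12 change. Nothing is therefore read from their separation from the controls. In 11C7 10 of the 15 genes lay above 0 (median 0.19), where 56.1% of all genes did. For IgG against NT 10 of the 15 did too (median 0.076), where 49.0% of all genes did. This list and those below were chosen with earlier results of these data known, so nothing is read from their counts in 7B12.

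Growth factor, receptor and transcription factor genes of macrophages were above 0 in 13 of 16 cases in 7B12 (median 0.25) and 11 of 16 in 11C7 (median 0.033). The transcription factor gene Maf, averaged over its probe sets, stood 1.12 above the controls in 7B12, and Tfec, a relative of Mitf, 1.05. Scavenger and phagocytic receptor genes were above 0 in 10 of 15 cases in 7B12 (median 0.27) and in 10 of 15 in 11C7 (median 0.098). Cd14, the co-receptor for bacterial lipopolysaccharide, stood at 1.26 to 3.42 in 7B12, against -0.80 to 0.15 in the controls. Olr1, a receptor for oxidised lipoprotein, went the other way, at -1.71 to -0.10 in 7B12 against -0.95 to 1.08 in the controls, and overlapped with them.

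Lysosome genes of phagocytes were above 0 in 9 of 13 cases in 7B12 (median 0.12) and 9 of 13 in 11C7 (median 0.14). Cst7, the cystatin F gene, stood at 1.70 to 3.07 in 7B12, against -1.53 to 0.24 in the controls, without overlap. Genes of alternative activation, the state with which high Mrc1 is often associated, were above 0 in 8 of 12 cases in 7B12 (median 0.27) and 5 of 12 in 11C7 (median -0.047). They did not move as 1 group. Il10, an anti-inflammatory cytokine gene, stood at -1.09 to 0.17 in 7B12, against -5.01 to -0.81 in the controls, and overlapped with them. Il10 lay below 0 in every control and 11C7 array, so its ratio too has an unknown divisor. Igf1, which encodes an insulin-like growth factor, was lower, at -1.36 to -1.15 in 7B12 against -0.14 to 0.75 in the controls. In each of these 4 lists 0 probe sets passed by limma in 7B12 or in 11C7.

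Taken as a mean, markers of resting microglia did not separate 7B12 from the controls. Their mean over 9 genes was 0.13, -0.13 and 0.38 in 7B12 and 0.12, -0.14 and 0.37 in 11C7, against -0.14, -0.39 and 0.49 in IgG and 0.02, -0.56 and 0.51 in NT. The same mean over the 7 members was 0.79, 0.98 and 1.35 in 7B12 and 0.96, -0.26 and 0.17 in 11C7, against -0.40, -0.21 and 0.39 in IgG and -0.59, -0.87 and 0.01 in NT. The members were chosen on the 7B12 difference, so nothing is read from how they stand beside the microglial list. Within the microglial list 5 of 9 genes lay above 0 in 7B12. P2ry6, a receptor for uridine diphosphate, stood 1.14 above the controls. It lay at 0.35 to 1.32 in 7B12 against -1.17 to 0.32 in the controls, without overlap. The surface protein gene Tmem119 stood 1.07 above the controls and overlapped with them. Sall1, a transcription factor gene, stood at -0.71 and the purine receptor gene P2ry12 at -0.56. Genes shared by all macrophages were above 0 in 10 of 11 cases (median 0.43), and their array means of 0.10 to 1.05 in 7B12 overlapped with -0.63 to 0.60 in the controls. For IgG against NT 10 of 11 genes of this list were above 0 too (median 0.090). Cd14 belongs to this list as well as to the scavenger list, and Stab1 to the scavenger list as well as to that of border macrophages.

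**Figure D5:**
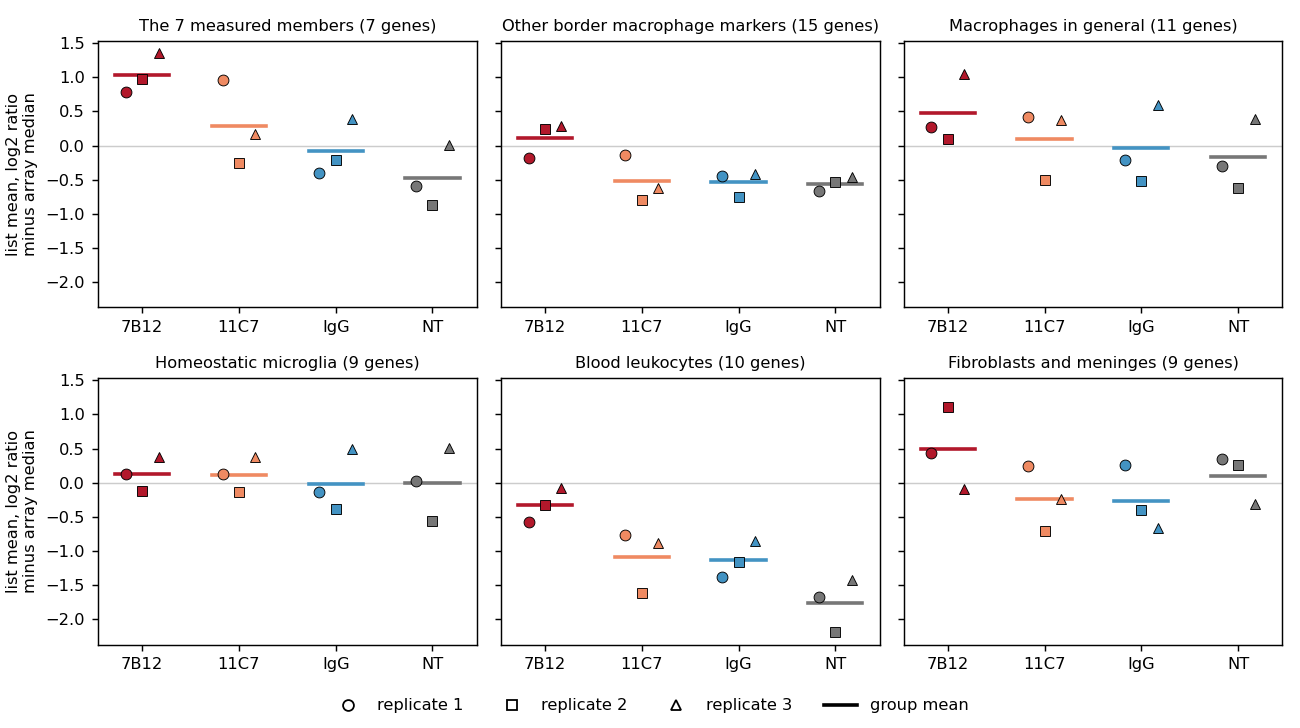
Mean log2 ratio minus array median over the genes of a list (vertical axis) in 7B12, 11C7, IgG and NT (horizontal axis); points are arrays, shapes give the replicate number and bars the mean of 3 arrays. The means of the 7 members, of the other border macrophage markers and of the blood leukocyte markers lie above all controls in 7B12. Those of microglial markers overlap. The members were chosen on the 7B12 difference, so nothing is read from the place of their mean.

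Markers of other cells moved beside the members. Of 10 measured marker genes of blood monocytes, neutrophils and lymphocytes, 9 lay above 0 in 7B12 (median 0.86). Their array means were -0.57, -0.33 and -0.09 in 7B12 and -0.77, -1.62 and -0.89 in 11C7, against -2.20 to -0.86 in the controls, so 7B12 lay above all controls here too. Cd79b, a chain of the B cell receptor, stood at 1.02 to 2.18 in 7B12, against -3.83 to 0.42 in the controls, and Plac8 at 0.53 to 1.61, against -1.56 to 0.13. Camp, at -1.63 to 0.87 in 7B12 against -3.35 to 0.11 in the controls, and S100a8, at 0.41 to 1.48 against -1.37 to 0.76, overlapped with the controls. The means of this list lay below 0 in every array, so some of its ratios, that of Camp among them, have an unknown divisor. For IgG against NT 8 of 10 genes of this list were above 0 too (median 0.57), and its median in 7B12 against IgG alone was 0.54. Fibroblast and meningeal markers were above 0 in 7 of 9 cases (median 0.73), with array means of 0.44, 1.11 and -0.09 in 7B12, against -0.66 to 0.35 in the controls. The collagen gene Col3a1 was highest in 7B12 2 (2.81), and 7B12 3 (-0.08) lay within the controls. The part of these cells in the members' values was not tested, and since the values are ratios it is unknown which of these markers are at 0.

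Markers of vessels and of the nervous tissue itself were mixed. For blood endothelium 1 of 7 genes lay above 0 in 7B12 (median -0.45), and for lymphatic endothelium, which shares Lyve1 as a marker, 2 of 3 did (median 0.65). Both red cell genes lay above 0 (median 0.31). Of neuron markers 4 of 8 lay above 0 (median 0.029), of astrocyte markers 3 of 6 (median -0.0058) and of oligodendrocyte markers 2 of 5 (median -0.11). In none of these lists did a probe set pass by limma.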

How the data were processed

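The authors hybridised biotin-labelled cRNA of 12 samples to Affymetrix rat arrays, per the labels, and the submitters' processing notes name GCOS 1.4 and MAS5. Each deposited value is a ratio: per the labels the authors normalized per chip and per gene. Within 0.0015, the median of the ratio was 1 over all 12 arrays for 76.4% of probe sets and over the 6 controls for 11.2%. For these 76.4% the deposited ratio is taken as relative to the 12-array median. The divisor of the others is not known here, and differences between groups do not depend on a divisor that is constant for a probe set. The arrays' median ratios were 0.915 to 0.987.

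Log2 of the ratio minus the array median was computed here for 31042 probe sets, after 57 spike-in controls were left out, with no filter on low values. The platform annotation gave 1 symbol for 20826 probe sets, several for 436 and none here for 9780. Group means were fitted over all 12 arrays in limma 3.58.1 (R 4.3.3) with lmFit, contrasts and eBayes, two-sided, with Benjamini-Hochberg adjustment over all probe sets at 0.05. The code was tested on simulated data. Groups and replicate numbers come from the titles. Precision is limited by 3 arrays per group.

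The members and lists were chosen with earlier results of these data known. All member probe sets are given, at most 4 genes per list (those with the largest absolute 7B12 change, probe sets of a gene averaged) are named, and the 5 probe sets most like the mean member profile are named. Promoter windows, gene positions and motif shares come from RefSeq tables on GRCr8, in which 7 of the 8 genes had a window. The alternatives tried were other centrings, a quantile normalization, array weights, a variance trend, probe sets of low ratio left out, other controls, the groups of a contrast alone, the replicate number as a block, the methods' analysis of variance and each array left out.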

Additional observations from a re-analysis of the deposited data

How the results depend on the processing

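The differences of Mrc1, Ms4a7, Folr2 and Lyz2 in 7B12 stayed above 0 in every setting run. Leaving out 1 array at a time gave 2.08 to 3.03 for Mrc1, 2.59 to 3.14 for Ms4a7, 2.01 to 2.38 for Folr2 and 1.20 to 1.59 for Lyz2. The other settings gave 2.12 to 2.57, 2.31 to 3.07, 1.92 to 2.45 and 1.21 to 1.47. The 7B12 differences of other members turned when 1 array was left out, with ranges of -0.54 to 0.22 for Cd163, -0.19 to 0.35 for Cd68 and -0.20 to 0.51 for Lyve1 1382732_at. Those of Cd163 also turned with the control used (-0.81 against IgG, 0.70 against NT).

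Same-numbered arrays of different groups deviated together from their group means with r over 0.1 in 17 of 18 pairs (0.086 to 0.423). In these deviations each of the 12 arrays correlated best with one of its own number. Removing the group mean by itself pushes r within a group below 0. In the values themselves 11C7 2 correlated best with 11C7 1 (0.563) and NT 3 with 11C7 2 (0.496). The labels do not state a pairing. With the replicate number as a block 0 probe sets passed in any of the 5 contrasts or over the 4 groups. With this block and without 11C7 1, chosen after seeing the data, 99 passed in 7B12 (84 higher, 15 lower; 4 were members) and 27 in 7B12 against 11C7 (24 higher, 3 lower; 2 were members). With the block and without all 11C7 arrays, also chosen afterwards, 68 passed in 7B12 (61 higher, 7 lower; 4 were members). Nothing is read from these member counts, since 7B12 chose the genes. With the block and without 11C7 1 the 11C7 differences turned for Mrc1 (-0.22), Lyve1 1382732_at (-0.23) and Lyz2 (-0.15). The cause was not tested.

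Without a block, leaving out 1 array gave 0 to 10 calls in 7B12, the 10 without 11C7 1 and all higher. It gave 0 to 1 in 11C7, in both antibodies together, in 7B12 against 11C7 and in IgG against NT. Calls were 1 in 7B12 with only the groups of the contrast and 1 in IgG against NT without probe sets of low ratio. The methods' analysis of variance over the 4 groups with at least 1.2-fold gave 928 of 31042 probe sets, and 0 after Benjamini-Hochberg. Of the 928, 4 were members, from which nothing is read, since the 7B12 arrays that chose the genes take part. In 11C7 Cd163 turned to -0.090 with array weights and -0.73 with IgG alone as control, and Cd68 to -0.069 and -0.020. Leaving out 1 array gave -0.46 to 0.30 for Cd163, -0.13 to 0.23 for Cd68 and -0.38 to 0.46 for Lyve1 1382732_at. For IgG against NT it gave -0.38 to 0.72 for Mrc1, -0.038 to 0.96 for Ms4a7, -0.071 to 0.33 for Lyz2, -0.17 to 0.39 for Cd68, -0.63 to 0.22 for Lyve1 1382192_at and -0.090 to 0.31 for Lyve1 1382732_at. The mean of both Lyve1 probe sets was -0.035 there. In 11C7 and in IgG against NT 0 members passed in every setting run, and the cause of these turns was not tested.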
